A study of Mus musculus with 12 samples.

Results

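The stretches of the mouse genome described here carried trimethylation of lysine 27 on histone H3 (H3K27me3) in cultured mesenchymal stem cells (MSCs), lay outside protein-coding genes and carried no acetylation of the same lysine (H3K27ac). They were taken from the list of 28047 regions in which the mark had been called in young and old cells. A region was kept when it lay on an autosome, was longer than 1.5 kb and shorter than 100 kb, was more than 1 kb from every protein-coding transcription start site (TSS), overlapped no protein-coding gene body and shared no base with any of 31617 H3K27ac regions. This left 12736 intergenic regions, chosen by position and by the other mark, without use of the H3K27me3 level beyond the call that put them in the list. Both marks were profiled by CUT&RUN, in which an antibody leads a nuclease to the mark and the released DNA fragments are sequenced. The MSCs came from young mice of 3 to 5 months or old mice of 18 to 22 months and were all cultured under 2% oxygen, with 3 libraries per mark and age. No strain, sex or tissue of origin is used here, and since the labels do not say that the libraries came from separate animals, p-values measure the spread between these libraries only.

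H3K27me3 is laid down by Polycomb repressive complex 2 and is bound by further Polycomb complexes, which keep genes silent in cells of the wrong lineage. It is best known at CpG-rich promoters of developmental regulators, but it also spreads as broad, low blankets over the gene-poor land between genes, where it can cover distant regulatory elements and genes for non-coding RNAs. H3K27ac marks active promoters and enhancers, and one lysine tail cannot carry both marks.

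The sequences shown first are from the 3 of the 8 densest intergenic regions that lay on microRNA (miRNA) genes, since these had some of the highest levels of the mark and CpG-rich sequence of the kind on which Polycomb is known to settle. The densest of all was the region of 40.5 kb at chr13:83709501-83750000, which holds Mir9-2. The others were the region of 30.0 kb at chr6:30165501-30195500, with Mir182, Mir96 and Mir183, and the region of 19.0 kb at chr3:17781501-17800500, with Mir124a-2. For each, the window of 200 bases with the most CpG dinucleotides is printed from the GRCm38 assembly, plus strand, with each CG in capitals. The letters searched were CG, which read the same on both strands.
Mir9-2 region, chr13:83731095-83731294: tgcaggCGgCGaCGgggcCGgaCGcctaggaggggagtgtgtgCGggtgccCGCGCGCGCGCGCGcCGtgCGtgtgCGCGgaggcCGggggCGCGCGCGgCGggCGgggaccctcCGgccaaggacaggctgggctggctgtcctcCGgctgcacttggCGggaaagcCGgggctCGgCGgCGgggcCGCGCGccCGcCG
Mir182, Mir96 and Mir183 region, chr6:30174132-30174331: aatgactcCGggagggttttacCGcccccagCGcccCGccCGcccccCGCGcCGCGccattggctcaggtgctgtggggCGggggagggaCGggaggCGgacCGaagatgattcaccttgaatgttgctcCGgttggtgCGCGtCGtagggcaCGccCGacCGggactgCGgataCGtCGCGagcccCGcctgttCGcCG
Mir124a-2 region, chr3:17786556-17786755: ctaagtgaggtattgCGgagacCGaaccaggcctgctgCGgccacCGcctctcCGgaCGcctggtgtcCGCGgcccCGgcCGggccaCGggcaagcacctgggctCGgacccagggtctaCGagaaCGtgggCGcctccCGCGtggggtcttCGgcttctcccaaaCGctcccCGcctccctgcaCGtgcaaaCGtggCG
These windows hold 36, 27 and 23 CpG. The best window of the median intergenic region held 7 (quartiles 5 and 9), and 0.0785%, 0.298% and 0.597% of the regions had a window at least as rich as these 3.

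Some mature miRNAs encoded in the first of these regions and in the Mir182 cluster are given from RefSeq. The seed, bases 2 to 8, is in capitals. Not printed are miR-9b-3p, miR-182-3p, miR-96-3p and miR-183-3p. miR-9 is known for neural differentiation, and the miR-183, miR-96 and miR-182 cluster for sensory cells.
mmu-miR-9-5p: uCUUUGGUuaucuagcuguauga
mmu-miR-9-3p: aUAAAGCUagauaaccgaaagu
mmu-miR-182-5p: uUUGGCAAugguagaacucacaccg
mmu-miR-96-5p: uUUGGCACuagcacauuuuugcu
mmu-miR-183-5p: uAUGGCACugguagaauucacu
RefSeq miRNA hairpins lay in 22 intergenic regions. Over the 6 densest of these, the 18 mature miRNAs had 18 different seeds, so no 2 shared one.

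The second set of windows belongs to the regions whose mark differed between ages with the smallest p-values, or held the most CpG among the called ones in either direction, and is printed in the same way. The first 4 lie in regions that were lower in old cells and the last in the one of the 3 higher regions with the most CpG.
Region 2.66 kb from the Meis2 TSS, chr2:116072353-116072552: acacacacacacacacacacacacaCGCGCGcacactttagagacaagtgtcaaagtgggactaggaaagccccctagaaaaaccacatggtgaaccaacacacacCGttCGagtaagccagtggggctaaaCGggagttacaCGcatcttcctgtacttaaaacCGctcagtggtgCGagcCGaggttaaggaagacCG
Its neighbour 9.66 kb from the Meis2 TSS, chr2:116075543-116075742: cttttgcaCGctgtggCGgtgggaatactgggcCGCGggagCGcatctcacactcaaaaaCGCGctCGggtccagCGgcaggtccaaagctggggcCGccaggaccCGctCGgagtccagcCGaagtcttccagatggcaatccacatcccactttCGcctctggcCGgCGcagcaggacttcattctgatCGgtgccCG
Region 2.67 kb from the Tbx3 TSS, chr5:119656888-119657087: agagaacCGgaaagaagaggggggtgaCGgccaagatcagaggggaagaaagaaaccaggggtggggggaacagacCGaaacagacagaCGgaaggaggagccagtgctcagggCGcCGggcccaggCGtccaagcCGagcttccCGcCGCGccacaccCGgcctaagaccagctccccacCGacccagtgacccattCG
Region 26.5 kb from the Fcgr1 TSS, chr3:96328215-96328414: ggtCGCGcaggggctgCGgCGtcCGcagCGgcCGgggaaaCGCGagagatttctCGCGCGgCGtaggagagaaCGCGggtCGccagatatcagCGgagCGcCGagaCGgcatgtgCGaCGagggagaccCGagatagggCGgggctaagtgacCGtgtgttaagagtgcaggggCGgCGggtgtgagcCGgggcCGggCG
Region 109 kb from the Gm765 TSS, chr6:98507480-98507679: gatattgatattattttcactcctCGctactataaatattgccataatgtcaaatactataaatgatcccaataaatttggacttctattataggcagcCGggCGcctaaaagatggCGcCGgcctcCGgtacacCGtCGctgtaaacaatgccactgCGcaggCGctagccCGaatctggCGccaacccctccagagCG
These windows hold 11, 18, 14, 30 and 13 CpG. Windows as rich as the first were found in 14.2% of intergenic regions, and windows as rich as the 4th in 0.157%.

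The H3K27me3 libraries held 3622108 to 9947515 mapped reads, with old replicate 2 the shallowest, and the H3K27ac libraries 2750953 to 5541429. Between 62.3% and 66.6% of the young H3K27me3 reads and between 53.8% and 60.8% of the old ones fell in H3K27me3 regions of any kind, so the libraries of the 2 ages differed in enrichment before any region was compared. The median intergenic region held 46 to 64 reads per young library and 22 to 57 per old library. At most 35 intergenic regions had 3 reads or fewer in any library but old replicate 2, where 350 did. The cell type label was checked at the start sites of marker genes. All 8 MSC markers, among them Pdgfra, Ly6a and Cd44, had H3K27ac within 1 kb of the TSS, and so did 1 of 4 endothelial markers (Pecam1) and none of the 6 blood, 3 muscle or 2 neural markers.

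The intergenic regions covered 178 Mb, or 7.41% of the autosomes, with a median length of 9.0 kb (quartiles 5.0 and 17.5). The median distance to a protein-coding TSS was 70.8 kb, and the farthest, in the gene desert between Tenm3, a teneurin adhesion protein, and Aga, lay 2238 kb away. Their level, given as reads per kb of region relative to the mapped reads of the library (RPKM) and divided by the library's scaling factor, had a median of 0.706 over all libraries. Reads spread evenly over the autosomes would give 0.417, and the median region stood at 1.69 times that level. The list holds regions in which the mark had been called, so a level above an even spread was given in advance. The levels of single regions ran from 0.301 to 2.69. The mark alone was thus low in most of these regions, and the regions with several times the even level were few.

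The level between genes was close to that of H3K27me3-only regions inside genes and well below that at promoters. Without the scaling factor, the median intergenic level was 0.737, 0.738 and 0.734 in the young libraries and 0.6998, 0.710 and 0.695 in the old ones, and no old library reached a young one. Divided by the median of the 5278 regions inside genes in the same library, it was 1.02 ± 0.00329 (SD, n = 3) in young and 1.03 ± 0.00454 (SD, n = 3) in old cells, and here the ages did not overlap. Divided by the median of the 3472 promoter regions, it was 0.713 ± 0.0175 in young and 0.757 ± 0.0388 in old cells, with groups that overlapped. No p-value is given for these summaries, because the regions were chosen with earlier results of these data known.

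**Figure D1:**
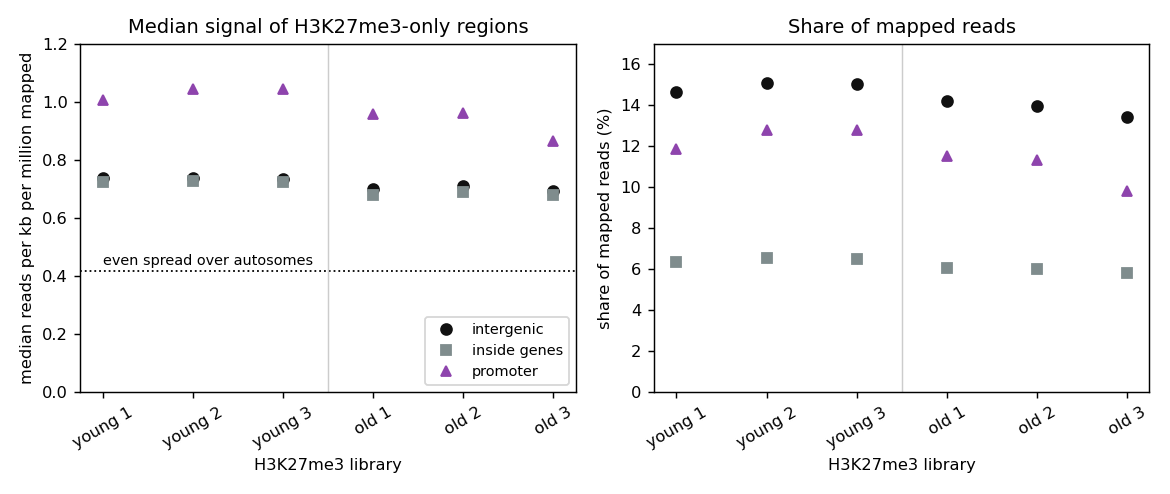
Left, the median level of H3K27me3-only regions in each library (RPKM, unscaled), with intergenic regions as circles, regions inside genes as squares and promoter regions as triangles. Right, the share of mapped reads in each class. Intergenic levels lie just above those inside genes in all 6 libraries and far below promoters, and the old libraries lie below the young ones in both panels for intergenic regions.

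Intergenic regions took 14.7%, 15.1% and 15.1% of the mapped reads in the young libraries and 14.2%, 13.99% and 13.5% in the old ones. The mean fell from 14.9% ± 0.245 to 13.9% ± 0.386 (SD, n = 3 each), a difference of -1.06 percentage points, and the ages did not overlap. Counted over the reads in H3K27me3 regions only, the same regions took 22.9% ± 0.520 in young and 24.0% ± 0.915 in old cells, a difference of 1.02 points in the other direction, and the ages overlapped. The direction of the change in share therefore depended on the denominator. The share of reads in H3K27me3 regions as a whole moved with age, as given above, and its part in the first difference was not tested. These are bulk samples, so fewer cells with the mark and less mark per cell cannot be told apart, and no control library without a specific antibody was used here.

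The regions just inside and outside the bounds of the rule had like levels. The 403 shortest intergenic regions, of 2.0 kb, had a median level of 0.714 and the 282 excluded ones of 1.5 kb had 0.724. The 37 longest, of 90.5 to 99.5 kb, had 0.899 and the 29 excluded ones of 100 to 109.5 kb had 0.914. The 385 lying 1 to 2 kb from a TSS had 0.849, and 186 lying nearer to one had 0.897.

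The level fell with distance from genes. It had a median of 0.789 in the 1831 regions 1 to 10 kb from a TSS, 0.730 at 10 to 50 kb, 0.693 at 50 to 200 kb, 0.670 at 200 to 500 kb and 0.648 in the 523 regions beyond 500 kb. Across the 12736 regions, Spearman's rho between level and distance was -0.28, a description over regions that share libraries and base composition. CpG content fell over the same distance classes, from a median of 8.22 to 5.55 CpG per kb. Level and CpG content had a rho of 0.25, so distance and sequence cannot be told apart as partners of the level. Longer regions were denser, with a median of 0.688 up to 5 kb and 0.883 from 50 to 100 kb.

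**Figure D2:**
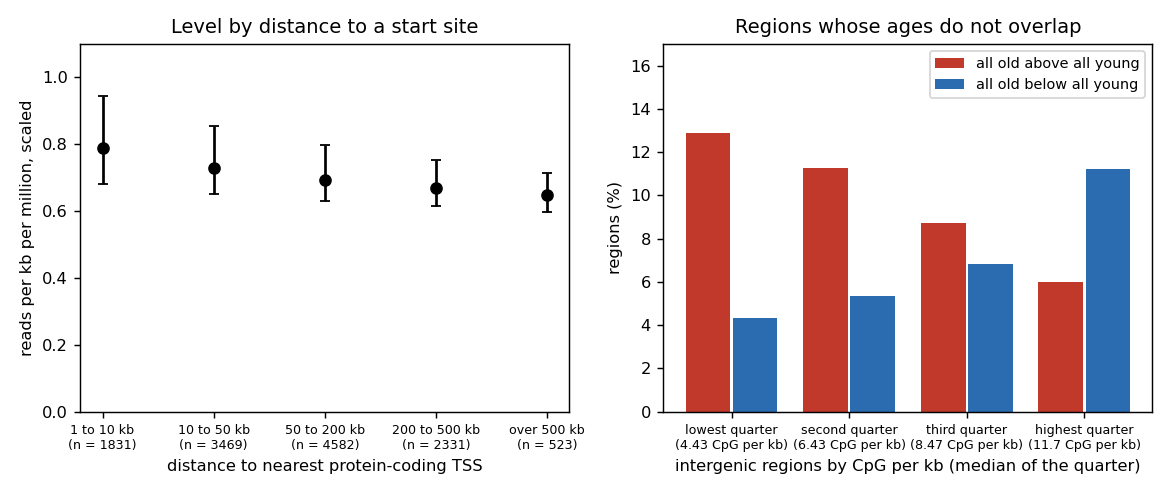
Left, median scaled level (points) with quartiles (bars) of the intergenic regions by distance to the nearest protein-coding TSS, falling from 0.789 to 0.648. Right, share of intergenic regions in which all 3 old libraries lie above (red) or below (blue) all 3 young ones, by quartile of CpG per kb. The red share falls from 12.9% to 5.97% and the blue share rises from 4.33% to 11.2%. Over all H3K27me3 regions the shares were 8.56% and 10.6%.

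The sequence under the intergenic mark held fewer CpG than that of H3K27me3-only regions inside genes or at promoters, with medians of 8.67 and 11.1 CpG per kb. The median intergenic region had 41.9% GC, 25.5% soft-masked repeats and 7.41 CpG per kb. Counted over all bases of the autosomes, which is not a median over regions, the values were 41.9%, 33.5% and 8.51. A CpG-island-like window, of 500 bp with at least 55% GC and an observed over expected CpG ratio of at least 0.65, was found in 180 regions, or 1.41%, compared with 3.13% of H3K27me3-only regions inside genes and 43.8% of those at promoters. The 180 had a median level of 1.03, and the others had 0.704.

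These regions lay in company. The nearest other H3K27me3 region was a median of 7.0 kb away, 4518 had one within 5 kb, and for 8913 that neighbour was itself an intergenic region of the same kind. They fell in 4084 gaps between protein-coding genes, and 56 of the gaps held 20 or more. The gap that held the most marked bases lay between Ets1, a transcription factor of blood and endothelial lineages, and Kirrel3, a neuronal adhesion protein, with 43 regions that covered 46.2% of its 1.73 Mb. Its scaled level over all 43 regions was 0.662, 0.641 and 0.691 in young and 0.712, 0.717 and 0.768 in old libraries. All 3 old libraries lay above the young range, but without the scaling factors the ages overlapped. None of the 43 passed the test below. Next came the gaps between Pkn2 and Lmo4 (59.6% covered), Id2 and Rnf144a (55.9%), Csnk1g3 and Zfp608 (68.8%), Nr2f2 and Gm10295 (64.7%), and Klhl29 and Apob (21.8%). In these 5 gaps the scaled levels of the ages overlapped when their regions were summed, and no region passed the test.

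Within those gaps the densest regions stood at 1.02 to 1.53. The highest, 45.0 kb at chr12:26061501-26106500 between Id2, an inhibitor of basic helix-loop-helix factors, and Rnf144a, had levels of 1.47, 1.67 and 1.50 in young and 1.69, 1.52 and 1.32 in old libraries. The one in the Nr2f2 gap, 72.5 kb at chr7:70685001-70757500, had 1.07, 0.992 and 1.23 in young and 1.01, 0.879 and 1.03 in old libraries. Nr2f2 encodes an orphan nuclear receptor of mesenchyme and vessels. Ages overlapped in both. The one in the gap between Csnk1g3 and Zfp608, of 94 kb, had 1.51, 1.60 and 1.71 in young and 1.41, 1.15 and 1.22 in old libraries, without overlap but not called (log2 fold change -0.35 ± 0.09, limma adjusted p = 0.0792). The 3 longest regions, of 99.5, 99.0 and 98.5 kb, lay nearest Rgs3, Rrp15 and Zfp703, with mean levels of 1.62, 1.12 and 1.49 and ages that overlapped in each.

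For 6689 of the intergenic regions, or 52.5%, the nearest protein-coding TSS carried H3K27ac alone, against 45.8% of the 20696 autosomal genes. It carried H3K27me3 alone for 3265, both marks for 1909 and neither for 873. The regions next to an acetylated start site had a median level of 0.716, those next to one with H3K27me3 alone 0.690. Non-coding genes overlapped it often: long non-coding RNA genes lay in 2430 regions, pseudogenes in 1062 and miRNA genes in 70. The 70 were longer (median 20.8 kb) and had a median level of 0.796, and 7 of them held a CpG-island-like window.

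Among regions with less than 50% repeats, the 8 densest included 3 on miRNA genes, the densest of all among them. The Mir9-2 region, 134 kb from Mef2c, a muscle and neural transcription factor, had levels of 2.77, 3.07 and 3.27 in young and 2.70, 2.40 and 1.94 in old libraries. All old libraries lay below all young ones there, but the difference did not pass the test (log2 fold change -0.38 ± 0.11 (SE), limma adjusted p = 0.0983). The Mir182 cluster region had 2.29, 2.44 and 2.46 in young and 2.37, 2.30 and 1.80 in old libraries, with overlap. The Mir124a-2 region, 148 kb from Cypt12, had 2.38, 2.61 and 2.68 in young and 2.31, 1.90 and 1.59 in old libraries, without overlap and without passing the test (adjusted p = 0.105). All 3 encode miRNAs of neural or sensory cells, and every young library had a level over 2 in each of them.

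The other 5 of the 8 held no miRNA gene. A region of 3.5 kb nearest Fcgr1, a receptor for immunoglobulin G, had a mean level of 2.31, but 49.9% of it was repeat sequence. Regions of 65.5 kb nearest the kinase gene Src, 14 kb nearest Mgst3, 37.5 kb nearest Msantd2 and 97.0 kb nearest Gm5447 had mean levels of 2.23, 2.14, 2.03 and 2.00. None of the 8 passed the test of age.

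The comparison of old with young cells asked where the intergenic mark differed by age. It was fitted with limma on log2(signal + 0.5) over all 28047 regions after median-of-ratios scaling, and values are log2 fold changes of old over young with SE. Of the 12736 intergenic regions, 3 were higher and 27 lower in old cells at an adjusted p under 0.05. Over all regions 0.082% were called higher and 0.406% lower, and over the intergenic ones the shares were 0.0236% and 0.212%, below that background in both directions. In all 30 the young and old libraries did not overlap, and edgeR called all 30 in the same direction on whole reads. edgeR itself called 26 higher and 93 lower, or 0.204% and 0.73%, against 0.275% and 1.08% of all regions. Leaving out any young library left 1 or 2 of the intergenic calls, while leaving out any old library gave 48 to 70 calls in all. Of the 30 themselves, 20 held without old replicate 1, 30 without old replicate 2 and 20 without old replicate 3.

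The large majority of intergenic regions were not called, which with so few libraries per age does not show that they were equal. An unadjusted p under 0.05 was reached by 10.7%, against 13.9% of all regions. In 1236 regions, or 9.7%, all old libraries lay above all young ones, and in 883, or 6.93%, below, where the background over all regions was 8.56% and 10.6%. The order of these 2 shares rested on the scaling: with the signal as deposited 445 regions stood above and 1892 below. The median log2 fold change was 0.03 over intergenic regions and -0.01 over all regions with scaling, and -0.09 and -0.13 without, so the sign of the intergenic median also rested on the scaling.

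**Figure D3:**
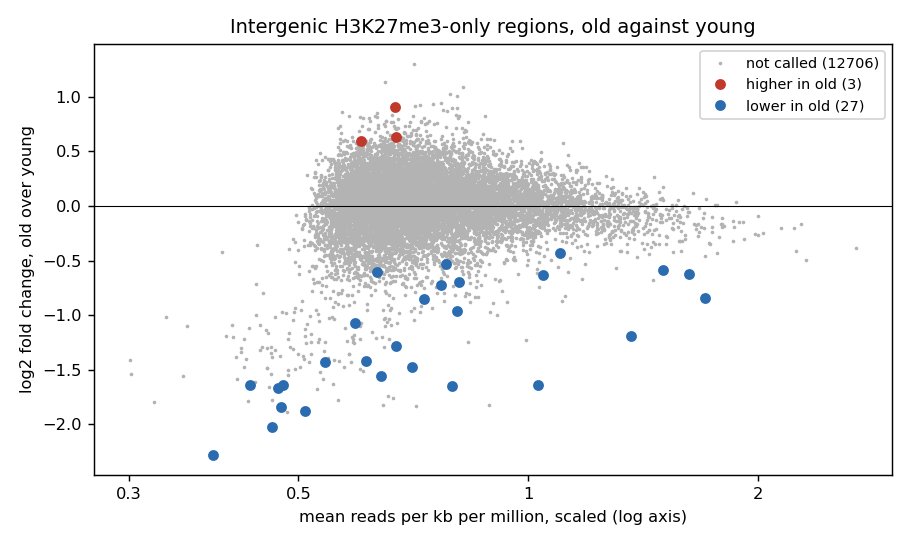
Log2 fold change of old over young against the mean scaled level (log axis) for all 12736 intergenic regions, with the 3 called higher in red and the 27 called lower in blue. The called regions lower in old span the whole range of levels up to 1.70, and those of low level have the most negative values, down to -2.28.

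The lower regions were of 2 kinds. The region list carries the authors' own state for each region, which names the ages in which the mark was called. That state was assigned on these same libraries, so it is no independent evidence of direction. Over all 28047 H3K27me3 regions the state was "Young" for 875 and "Old" for 3. Among the intergenic regions it was "Young" for 126 and "Old" for none, and all 126 had a negative log2 fold change here. Of the 27 lower regions 15 were among them, with a median length of 2.5 kb and 15.8 reads per library, and 12 were called at both ages, with a median length of 24.2 kb and 233 reads. Leaving out the 126 left 3 higher and 12 lower regions.

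A group of 5 gaps between genes held 12 of the 30 called regions. The gap between Nudt12 and Efna5 held 4, all lower in old, and the gaps Meis2 to Tmco5, Fbxo8 to Hand2, Irx1 to Irx2 and Tfap2b to Pkhd1 held 2 each, again all lower. Such gaps were picked for their calls, so signs are given below for the regions that were not called. Some of those adjoin a called region without a break, for example beside Efna5 and Meis2. Their signs are therefore not independent of the calls that picked the gap. Among all intergenic regions 55.1% had a positive value with scaling. Without it their median was negative, as given above, so this comparison rests on the scaling. Of all 30 called regions, 23 had a nearest TSS with H3K27me3, alone or with H3K27ac, which was so for 40.6% of all intergenic regions. A further H3K27me3 region lay within 5 kb of 20 of the 30, and of 35.5% of all intergenic regions. Such a neighbour was also found for 106 of the 126 regions with the authors' young state, which include 15 of the 30.

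The smallest p-value belonged to a region of 7.0 kb at chr2:116068501-116075500, 2.66 kb from the TSS of Meis2, a homeodomain partner of Hox proteins in limb and head mesenchyme. Its levels were 1.69, 1.74 and 2.30 in young and 0.967, 0.731 and 0.747 in old libraries. All old libraries lay far below all young ones, and the region fell by 1.19 ± 0.17 (SE) on the log2 scale (limma adjusted p = 0.00365). The neighbour of 2.0 kb that begins at its end had 1.33, 1.41 and 2.03 in young and 0.546, 0.711 and 0.158 in old libraries and fell by 1.64 ± 0.36 (adjusted p = 0.0455). The next region, which begins where that one ends, had means of 1.197 ± 0.189 in young and 0.584 ± 0.299 in old cells (SD, n = 3 each) and was not called by limma (adjusted p = 0.169). None of the 14 other regions of the gap was called, and 7 of them had a negative value. Both called regions overlap the non-coding genes 2810405F15Rik and G630016G05Rik.

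The second smallest p-value belonged to 19.0 kb at chr5:119649001-119668000, 2.67 kb from the TSS of Tbx3, a T-box factor of limb and heart, over the antisense gene Tbx3os1. Its levels were 2.22, 2.31 and 2.02 in young and 1.50, 1.00 and 1.18 in old libraries. The ages were far apart, and the region fell by 0.84 ± 0.13 (adjusted p = 0.0046). The Tbx3 start site itself carried H3K27ac alone. Of the 22 other intergenic regions between Med13l and Tbx3, none was called and 16 had a negative value.

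The gap on the Efna5 side stretched over 3.59 Mb and held 25 intergenic regions. Of the 21 that were not called, 17 had a negative value. Efna5 encodes ephrin-A5, a ligand of Eph receptors that steers axons. The largest called region, 33.0 kb at chr17:62536001-62569000, 312 kb from the Efna5 TSS, had levels of 1.24, 1.27 and 1.31 in young and 0.903, 0.698 and 0.869 in old libraries. Here no old library came near a young one, and the fall was 0.63 ± 0.11 (adjusted p = 0.018). The other 3 called ones carried the authors' young state and few reads. One of 5.5 kb at chr17:61592001-61597500, 1284 kb from the TSS, held 37, 44 and 32 reads in young and 14, 3 and 7 in old libraries and fell by 1.64 ± 0.27 (adjusted p = 0.0104). One of 2.0 kb at chr17:61586501-61588500 held 15, 23 and 11 young and 4, 1 and 1 old reads. Scaled for depth, its young over old ratio was 5.60 (exact 95% interval 2.39 to 16.0, counting error only), and it stood at -1.88 ± 0.38 on the log2 scale (adjusted p = 0.0315). One of 2.0 kb at chr17:62266501-62268500 held 15, 16 and 12 young and 2, 1 and 3 old reads, with a ratio of 4.91 (2.08 to 14.1) and -1.67 ± 0.37 on the log2 scale (adjusted p = 0.0455). Leaving out any young library left none of these 4 called by limma.

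**Figure D4:**
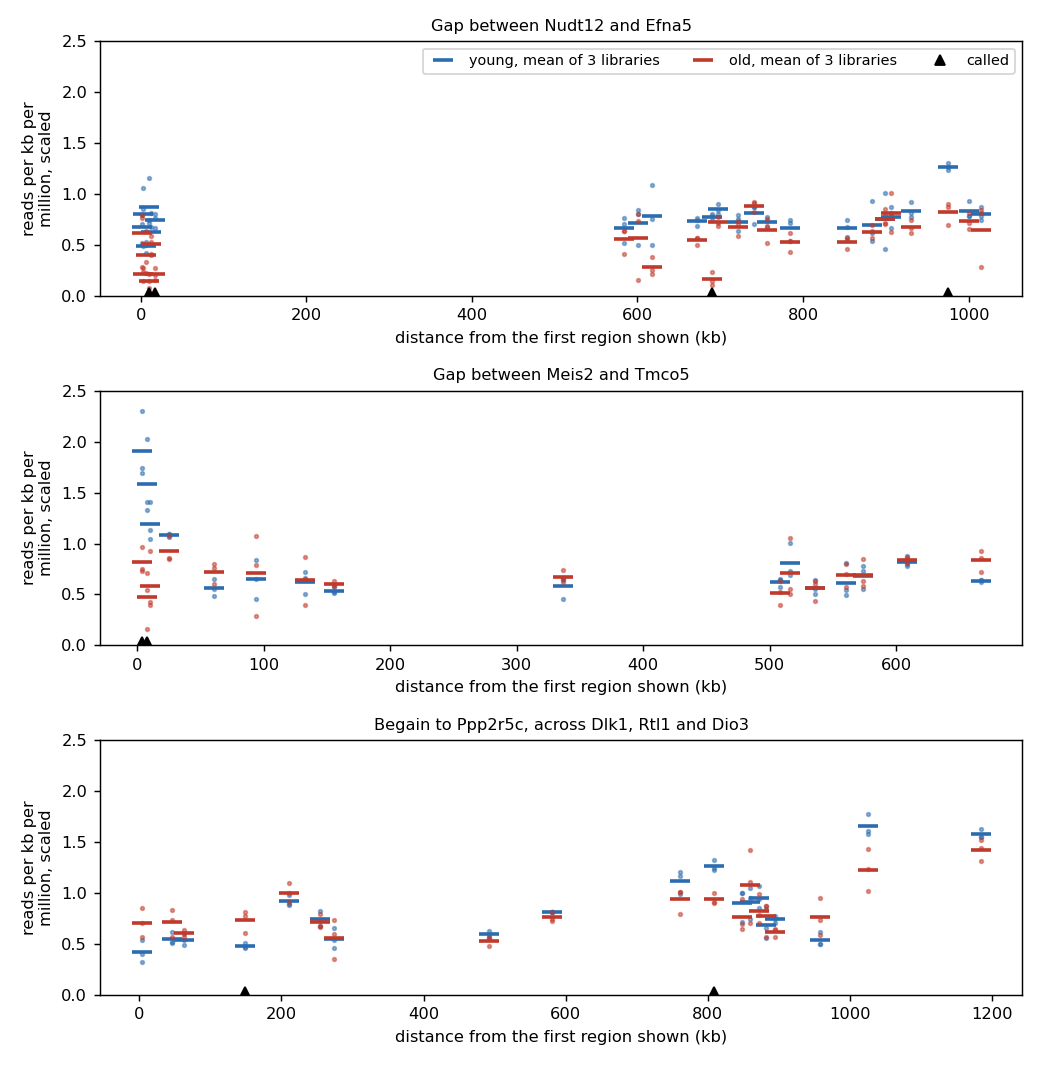
Scaled level of each intergenic region along 3 stretches (top, regions nearest Efna5 in its gap, middle, the Meis2 gap, bottom, Begain to Ppp2r5c), against distance in kb from the first region shown. Dots are single libraries, dashes are means of 3 (blue young, red old) and triangles mark called regions. In the Meis2 gap the called regions are the first 2, beside the TSS.

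The Iroquois homeobox genes Irx1 and Irx2 pattern limb, heart and nervous system. Between them lay 9 intergenic regions. Of the 7 not called, 6 had a negative value, and the other 2 were called lower. One of 18.0 kb at chr13:72287501-72305500 had levels of 1.103, 1.02 and 0.901 in young and 0.691, 0.537 and 0.625 in old libraries (log2 fold change -0.69 ± 0.14, adjusted p = 0.0315). The other, 5.0 kb at chr13:72027001-72032000, had 0.830, 0.744 and 0.889 in young and 0.371, 0.341 and 0.380 in old libraries (log2 fold change -1.07 ± 0.24, adjusted p = 0.0455). In both the ages were well separated.

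Between Fbxo8 and Hand2, a basic helix-loop-helix factor of heart and limb, 14 of the 16 regions not called had a negative value. In that gap 2 more were called lower. A region of 39.0 kb at chr8:56602501-56641500 had levels of 1.89, 1.72 and 1.79 in young and 1.41, 1.04 and 1.16 in old libraries, a fall of 0.59 ± 0.11 (adjusted p = 0.0187). A smaller one of 4.0 kb, 111 kb from the Hand2 TSS, went from a mean of 0.981 ± 0.209 to 0.361 ± 0.0464 (SD, n = 3 each). In the gap beside Tfap2b, an AP-2 factor of the neural crest, all 8 regions not called had a negative value, and 2 more were called lower. The called one of 10.0 kb, 685 kb from the TSS, had 1.08, 0.976 and 1.15 in young and 0.502, 0.427 and 0.713 in old libraries (log2 fold change -0.96 ± 0.19, adjusted p = 0.0282), and one of 2.5 kb went from 1.08 ± 0.224 to 0.327 ± 0.105.

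Among called regions, the 6 largest falls all lay in short regions with the authors' young state and few reads. The largest, 2.5 kb at chr19:14707501-14710000 and 109 kb from Tle4, a Groucho co-repressor, held 21, 13 and 14 reads in young and 1, 0 and 3 in old libraries. Its young over old ratio was 8.22 (exact 95% interval 3.01 to 31.4, counting error only), and the log2 fold change was -2.28 ± 0.43 (adjusted p = 0.0243). A region of 2.5 kb nearest the sorting nexin gene Snx19 held 21, 12 and 20 young and 5, 0 and 3 old reads, a ratio of 4.54 (2.14 to 11.1) at an adjusted p of 0.0455 in limma. A region of 2.0 kb nearest Galc, the lysosomal galactosylceramidase, held 16, 18 and 11 young and 1, 1 and 3 old reads, a ratio of 6.17 (2.46 to 19.9) at an adjusted p of 0.0387 in limma. The 2 Efna5 regions of 2.0 kb are described above. The 6th, 2.5 kb nearest Spock1, a proteoglycan of the testican family, held 29, 21 and 34 young and 6, 2 and 8 old reads, and the value on the log2 scale was -1.65 ± 0.34 (adjusted p = 0.0366). In each of the 6 the old libraries lay well below the young ones, with counts that give wide intervals.

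A total of 3 regions were higher in old cells. The one with the largest change was 19.0 kb at chr13:12894001-12913000, 92.3 kb from Prl2c2, a placental hormone of the prolactin family. Its levels were 0.593, 0.418 and 0.379 in young and 0.689, 0.973 and 0.959 in old libraries (log2 fold change 0.91 ± 0.17, adjusted p = 0.0282). The Prl2c genes are near-identical copies, and 42.5% of the region is repeat sequence, so reads there could be shared between copies. A region of 56.5 kb at chr6:98451501-98508000, between Gm765 and Foxp1, had 0.451, 0.548 and 0.569 in young and 0.705, 1.04 and 0.721 in old libraries (log2 fold change 0.63 ± 0.13, adjusted p = 0.0446). Of the 9 other regions in the same gap, none of them called, 1 had a negative value. The third, 36.0 kb at chr12:109285501-109321500, lay 131 kb from Dlk1 and had 0.505, 0.458 and 0.469 in young and 0.606, 0.814 and 0.770 in old libraries (log2 fold change 0.60 ± 0.13, adjusted p = 0.04). Repeats made up 60.5% of it.

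**Figure D5:**
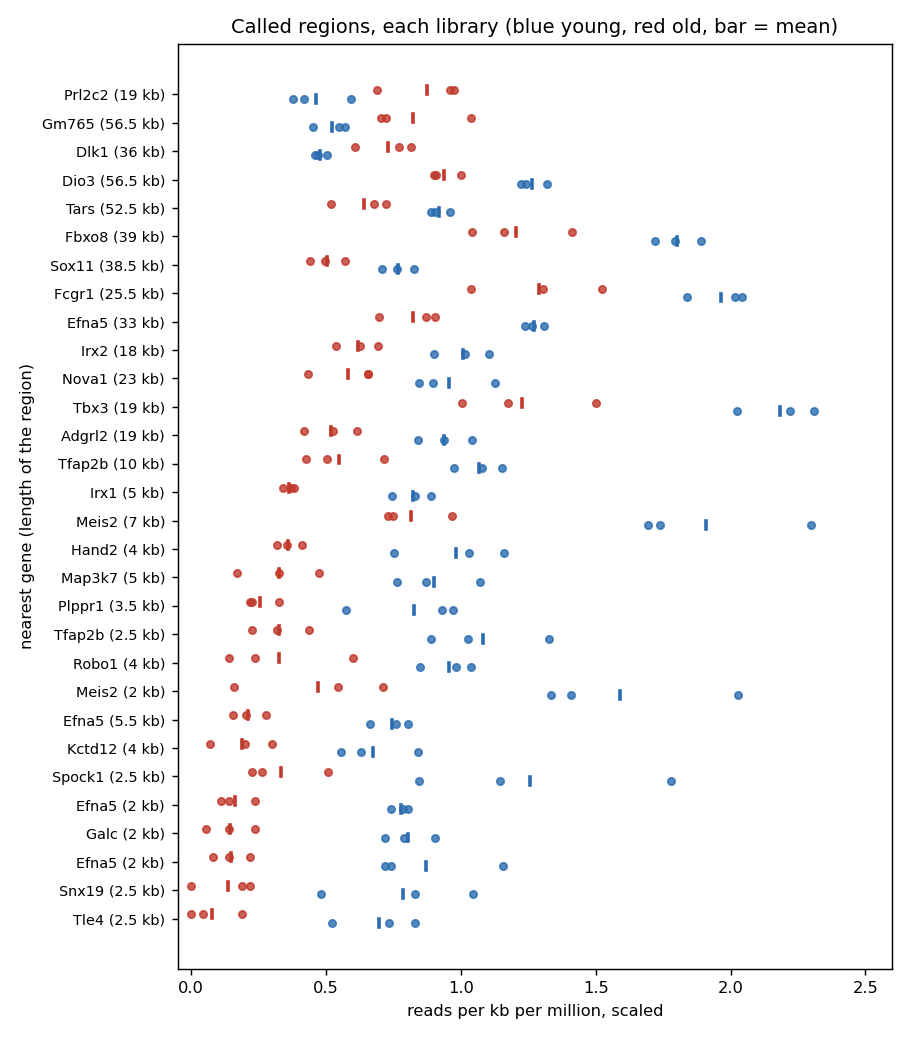
Scaled level in each library for the 30 called regions, named by the nearest gene and the length, with young libraries in blue, old libraries in red and a bar at each mean. The top 3 are higher in old and the other 27 lower, and in every row the colours do not overlap.

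The Dlk1 region lies beside the imprinted Dlk1-Dio3 domain of chromosome 12, in which Dlk1, an inhibitor of fat cell formation, Rtl1 and Dio3, which inactivates thyroid hormone, are read from the paternal copy and a long series of miRNAs from the maternal one. The domain was singled out after its values were seen, because called regions of opposite direction lay in and beside it. Between Rtl1 and Dio3 a region of 56.5 kb at chr12:109935001-109991500, 288 kb from Dio3, had levels of 1.24, 1.32 and 1.22 in young and 0.900, 1.00 and 0.909 in old libraries (log2 fold change -0.43 ± 0.09, adjusted p = 0.0387). Of the regions not called, 2 of 6 in the gap between Begain and Dlk1 had a negative value, and 7 of 10 in that between Rtl1 and Dio3. The densest region of the latter gap, 39.0 kb long and 80.1 kb from Dio3, had a mean of 1.66 in young and 1.23 in old cells, without overlap but not called (limma adjusted p = 0.0716). Nearer to Rtl1, the region of 67.5 kb at chr12:109701001-109768500 holds the Mirg miRNA cluster. Its levels were 0.811, 0.809 and 0.814 in young and 0.749, 0.813 and 0.723 in old libraries, and the ages overlapped. Whether the domain differs from other stretches was not tested.

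The other called regions, all lower in old cells, lay nearest Adgrl2, Nova1, Sox11, Tars, Fcgr1, Map3k7, Plppr1, Kctd12 and Robo1, with log2 fold changes from -0.53 to -1.64. These regions, and those called beside Tbx3, Irx1, Irx2, Fbxo8, Hand2, Tfap2b and Dio3, the second one beside Meis2 and the long one beside Efna5, lay outside the rule for named regions and were chosen after their values were seen. Of the 9, 3 are given in full. The region of 25.5 kb 26.5 kb from Fcgr1, with a CpG-island-like window, had levels of 2.04, 1.84 and 2.02 in young and 1.52, 1.04 and 1.31 in old libraries (log2 fold change -0.62 ± 0.12, adjusted p = 0.0282). That of 38.5 kb nearest Sox11, an SRY-related factor of neural and mesenchymal progenitors, had 0.762, 0.708 and 0.825 in young and 0.442, 0.569 and 0.498 in old libraries (log2 fold change -0.60 ± 0.12, adjusted p = 0.0284). That of 19.0 kb nearest Adgrl2, an adhesion receptor, had 1.04, 0.842 and 0.936 in young and 0.615, 0.419 and 0.526 in old libraries (log2 fold change -0.85 ± 0.15, adjusted p = 0.02). Robo1, a receptor for the axon guidance factor Slit, had a region of 4.0 kb with 42, 39 and 26 young and 22, 2 and 6 old reads, of which 52.8% was repeat sequence.

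Age differences followed the CpG content of the sequence. Split into quartiles of CpG per kb, the intergenic regions had median log2 fold changes of 0.08, 0.05, 0.02 and -0.03 from the CpG-poorest to the CpG-richest. In the poorest quartile 12.9% of regions had all old libraries above all young ones and 4.33% below, and in the richest 5.97% and 11.2%. Over all regions these shares were 8.56% and 10.6%, so the share below in the richest quartile was close to that background. The order of such shares over all intergenic regions rested on the scaling, as given above. The 180 regions with a CpG-island-like window had a median of -0.08. In 21.1% of them all old libraries lay below all young ones, against 6.73% of the other intergenic regions and 10.6% of all regions. Among H3K27me3-only promoter regions the share was 16.3%. The 180 were longer and deeper than the other intergenic regions, with medians of 23.5 against 8.5 kb and 203 against 47.8 reads per library. The part of length and depth was not tested. Of the 180, 2 were called, both lower, or 1.11% against the 0.406% called lower among all regions. GC content moved alike, with medians from 0.07 in the poorest quartile to -0.01 in the richest, so CpG and GC cannot be told apart here, and the part of GC-dependent differences between libraries was not tested. The difference between the richest and poorest CpG quartile was -0.11, and it ran from -0.07 without old replicate 3 to -0.14 without old replicate 2.

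A set of 7 gene lists, matched by the nearest TSS, described what the intergenic regions lay beside. Nearest developmental transcription factors lay 509 regions, beside 102 of 292 such genes, of which 9 were called lower and 0 higher, or 1.77% against the 0.406% called lower among all regions, and edgeR called 17 lower and 0 higher. The median log2 fold change of the list was -0.05. The 9 lay nearest Meis2 and Tfap2b (2 each), Hand2, Irx1, Irx2, Tbx3 and Sox11. In this list 14.1% of regions had all old libraries below all young ones and 6.68% above, where the background over all regions was 10.6% and 8.56%. The densest region of the list, 27 kb at chr7:70273001-70300000 and 60.6 kb from Nr2f2, had 1.76, 2.30 and 2.27 in young and 2.20, 1.51 and 1.47 in old libraries, which overlapped.

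Nearest genes of neuronal adhesion and axon guidance lay 296 regions, of which 5 were called lower, 4 beside Efna5 and 1 beside Robo1, and 0 higher, where 0.406% and 0.082% of all regions were called. edgeR called 12 lower and 2 higher in this list. The median log2 fold change was -0.10, and 14.2% had all old libraries below all young ones and 5.74% above, against 10.6% and 8.56% of all regions. The densest, 6.5 kb in the Tenm3 desert at chr8:50912501-50919000, is also the region farthest from a TSS and holds a CpG-island-like window, with levels of 1.79, 1.56 and 1.51 in young and 1.38, 1.49 and 1.02 in old libraries. All old libraries lay below all young ones, but the difference was not called (adjusted p = 0.391).

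No region of the other 5 lists was called by limma. An unadjusted p under 0.05 was reached by 11.1%, 12.3%, 12.4%, 9.30% and 14.9% of these lists in the order below, against 13.9% of all regions, and edgeR called 1 lower beside morphogens, 1 higher beside ion channels and 0 beside the others. The 99 regions nearest secreted morphogens and their antagonists had a median log2 fold change of -0.04. The smallest p-value among them belonged to 2.5 kb nearest Rspo3, a Wnt agonist, with 29, 16 and 12 young and 6, 2 and 3 old reads (adjusted p = 0.0679 in limma), and the densest lay 72.7 kb from Inhbb, the activin beta-B subunit, at a mean of 1.102. The 171 nearest ion channels and transmitter receptors had 0.06, and 14.6% of them had all old libraries above all young ones and 2.34% below, where the shares over all regions were 8.56% and 10.6%. The smallest p-value there belonged to 11 kb nearest the dopamine receptor gene Drd1, which had levels of 0.485, 0.485 and 0.523 in young and 0.794, 1.09 and 0.648 in old libraries (adjusted p = 0.0876 in limma), and the densest, at 1.31, lay nearest the potassium channel gene Kcnj5.

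The 89 regions nearest chemosensory receptors had a median log2 fold change of 0.09, with the densest, at 1.56, nearest Olfr1413 and the smallest p-value nearest Vmn1r42 (adjusted p = 0.0903 in limma). These receptors form large families of similar genes, so reads could be shared between copies. The 43 regions nearest bone and fat lineage genes had 0.05. Here a region of 18.0 kb nearest Acan, the cartilage proteoglycan aggrecan, had levels of 0.450, 0.509 and 0.509 in young and 0.703, 0.837 and 0.616 in old libraries (adjusted p = 0.108 in limma). All old libraries lay above all young ones, but the difference was not called. The densest of the list lay nearest Msx2, a homeobox factor of skull and limb, with 1.24, 1.12 and 1.23 in young and 1.09, 0.882 and 0.935 in old libraries. Here all old libraries lay below all young ones, again without a call (log2 fold change -0.30, adjusted p = 0.372 in limma). The 47 regions nearest blood, endothelial and muscle genes had a median of 0.00, with the smallest p-value nearest Emcn, an endothelial sialomucin (adjusted p = 0.244 in limma).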

How the data were processed

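The values analysed were 2 deposited tables, 1 per mark, with 1 column per library, and no sample column was left unused. Per the labels, reads were mapped with Bowtie2 to mm10 (GRCm38) and handled with Picard; versions, the region caller and the counting tool are not given in the sources used here, and no control library was used here. The deposited signal, named RPKM by the authors, is whole reads relative to the mapped reads of the library, divided by 0.5 kb and not by the length of the region: all values were whole multiples of 1 read within 0.01, and the deposited counts of reads were recovered from them. Levels per kb were computed from these reads and the lengths. The members and lists were chosen with earlier results of these data known.

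Genes and start sites were taken from GENCODE M21, and sequence, repeats and miRNAs from RefSeq on GRCm38, on which no region ran past a chromosome end. Old and young were compared with limma 3.58.1 in R 4.3.3 on log2(signal + 0.5) after median-of-ratios scaling, with variance trend and robust moderation, two-sided, with Benjamini-Hochberg adjustment over 28047 regions, 3 libraries per group. edgeR 4.0.16 and DESeq2 1.42.0 on recovered reads, other pseudocounts, filters and member rules, and leaving out each library were the alternatives. The fits were tested on simulated data. Each library's scaling factor lay between 0.920 and 1.06. Fold changes on this scale understate changes of low regions. Named regions were the 6 largest called changes in each direction, the 8 densest with under 50% repeats, the densest in each of the 6 fullest gaps, the 3 longest, and per gene list the one with the smallest p and the densest. Depth was 3622108 to 9947515 reads per H3K27me3 library, and intervals cover counting error only. The densest region of 1 gene list is not reported here.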

Additional observations from a re-analysis of the deposited data

How the results depend on the processing

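The number of intergenic regions called depended on the settings, and the cause was not tested. Against 30 in the report, edgeR called 119, DESeq2 15, limma on the signal as deposited 211, a pseudocount of 0.1 14, a pseudocount of 2 57, a minimum mean of 10 reads 17, and limma without trend and robust moderation 5. Keeping only regions without any annotated gene left 19 of 9245, and leaving out the authors' young-only regions, an alternative chosen after seeing the data, left 15. Leaving out single libraries gave 1 to 70 calls. With a replicate block, which pairs equal replicate numbers, 105 were called and all 30 held, but equal numbers did not deviate together (correlations of 0.025, 0.043 and -0.078), so no pairing is assumed. None of the 30 changed sign under any alternative in which its sign was checked. Under DESeq2 that was done for the 10 with an adjusted p, all of them called. The others got no adjusted p from DESeq2 and were not called by it. The minimum of 10 reads kept 26 of the 30. Without young replicate 1 the calls at Meis2 and Prl2c2 held, without young replicate 2 that at Meis2, and without young replicate 3 that at Tbx3.

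The median log2 fold change was -0.089 with the signal as deposited and lay between 0.02 and 0.04 when single libraries were left out. The difference in the share of mapped reads, -1.06 points, was -0.60 without regions on annotated genes, 1.02 of reads in H3K27me3 regions, and -1.22 to -0.85 when single libraries were left out. The median level of 0.706 became 0.754 as a mean and lay between 0.6998 and 0.712 when single libraries were left out. Depth limits regions of 2 to 5 kb most, since old replicate 2 had 350 intergenic regions at 3 reads or fewer. The counts of regions without overlap on the signal as deposited, and the alternatives for the CpG quartiles and the Efna5 gap, were also chosen after seeing the data.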
